A study of Mus musculus with 2 samples.

Results

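Granzyme-high CD8 T cells are the tumour-infiltrating CD8 T cells that carried RNA of granzymes D, E, F or G, a set of granule serine proteases of the mouse. They were defined as barcodes with at least 500 UMIs, 200 genes and at most 10% mitochondrial UMIs, at least 2 UMIs of Cd3e, Cd3d and Cd3g together, at least 2 of Cd8a and Cd8b1, fewer than 5 of the macrophage genes C1qa, C1qb, C1qc and Lyz2, fewer than 10 of the melanoma genes Pmel, Mlana and Dct, and at least 10 UMIs of Gzmd, Gzme, Gzmf and Gzmg together. A UMI (unique molecular identifier) marks 1 captured RNA molecule. The rule found 293 cells, 92 of 7500 passing barcodes in the OX40 agonist library and 201 of 6354 in the control library. The CD8 T cells that met every other limit but held fewer than 10 granzyme D to G UMIs, 1185 and 1391 cells, are called other CD8 T cells below. Since measured granzyme, Cd3 and Cd8 UMIs chose the cells, their levels are a description and support nothing further.

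The cells came from subcutaneous tumours of B16-F10, a mouse melanoma line, in female wild-type C57BL/6 mice aged 10 weeks. One group received an agonist of OX40 (encoded by Tnfrsf4), which costimulates T cells once they are activated, and the other was the control. Live CD45-positive leukocytes were sorted and profiled with droplet single-cell RNA sequencing of transcript 3′ ends, as 1 library per group. The agonist's clone and dose, and how many mice each library pools, are not given in the sources used here.

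Granzymes are stored with perforin, the pore-forming protein Prf1, in the granules of cytotoxic lymphocytes and are released onto target cells. Granzyme B is the main death-inducing protease of the family, and granzyme A is encoded at another locus. Mouse granzymes C to G and N are encoded beside granzyme B on chromosome 14, and the D to G genes are rodent duplicates with no human counterpart of the same name. They are known from strongly and repeatedly stimulated T cells and from NK cells of the pregnant uterus.

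The 4 genes lie next to each other with Gzmn and Gzmc, all on the minus strand of chromosome 14 (GRCm38, the mm10 build of the files). In the GENCODE annotation the genes run Gzme (56117626 to 56120625), Gzmd (56129556 to 56132608), Gzmg (56156582 to 56159579), Gzmn (56165797 to 56174599), Gzmf (56205263 to 56211417), Gzmc (56231441 to 56234656) and Gzmb (56258838 to 56262260). The start of Gzmd lies 11.983 kb from that of Gzme, and Gzmf 90.792 kb from it. The 250 bases upstream of the RefSeq start, which can differ from the GENCODE start, are shown for the 4 genes and for their neighbours Gzmc and Gzmb, because the cells differed in which of these genes they used. Sequences are from RefSeq (GRCm38.p6), 5′ to 3′ on the strand of the gene. Capitals mark AACCACA (a Runx motif, TGTGGTT on the other strand), AGGAAGT (an ETS motif, ACTTCCT on the other strand) and TGACGTCA (the cyclic AMP response element, the same on either strand).
Gzme, chr14:56120626-56120875, minus strand: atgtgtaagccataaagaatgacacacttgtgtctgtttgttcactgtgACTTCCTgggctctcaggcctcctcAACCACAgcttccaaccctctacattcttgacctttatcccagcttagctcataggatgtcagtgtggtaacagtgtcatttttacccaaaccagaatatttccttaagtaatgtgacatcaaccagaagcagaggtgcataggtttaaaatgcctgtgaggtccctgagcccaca
Gzmd, chr14:56132594-56132843, minus strand: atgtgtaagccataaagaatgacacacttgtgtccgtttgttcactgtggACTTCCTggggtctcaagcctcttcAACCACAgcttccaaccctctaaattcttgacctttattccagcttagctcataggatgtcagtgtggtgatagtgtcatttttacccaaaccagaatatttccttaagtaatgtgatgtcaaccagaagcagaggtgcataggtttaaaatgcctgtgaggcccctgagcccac
Gzmg, chr14:56159580-56159829, minus strand: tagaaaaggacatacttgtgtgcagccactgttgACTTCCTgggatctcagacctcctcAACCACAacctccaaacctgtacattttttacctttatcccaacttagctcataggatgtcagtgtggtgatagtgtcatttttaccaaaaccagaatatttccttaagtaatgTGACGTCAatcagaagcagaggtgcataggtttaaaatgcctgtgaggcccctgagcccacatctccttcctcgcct
Gzmf, chr14:56211408-56211657, minus strand: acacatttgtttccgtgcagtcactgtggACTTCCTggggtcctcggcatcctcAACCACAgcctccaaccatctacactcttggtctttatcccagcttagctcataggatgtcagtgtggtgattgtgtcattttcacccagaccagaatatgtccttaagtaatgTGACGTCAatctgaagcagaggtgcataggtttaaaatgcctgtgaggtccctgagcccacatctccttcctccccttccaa
Gzmc, chr14:56234658-56234907, minus strand: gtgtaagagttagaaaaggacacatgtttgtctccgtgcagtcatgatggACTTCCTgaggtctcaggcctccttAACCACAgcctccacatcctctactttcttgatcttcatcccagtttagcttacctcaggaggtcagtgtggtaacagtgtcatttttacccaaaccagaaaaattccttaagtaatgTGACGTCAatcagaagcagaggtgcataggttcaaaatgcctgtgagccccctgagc
Gzmb, chr14:56262335-56262584, minus strand: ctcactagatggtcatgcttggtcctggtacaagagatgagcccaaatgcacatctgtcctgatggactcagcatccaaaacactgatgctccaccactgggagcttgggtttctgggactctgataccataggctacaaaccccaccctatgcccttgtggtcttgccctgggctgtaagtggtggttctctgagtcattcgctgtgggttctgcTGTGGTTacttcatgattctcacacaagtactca

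Upstream of Gzme and Gzmd, 95.6% of 249 aligned bases were identical. Gzmf was 88.6% identical to Gzme and 88.4% to Gzmg. Gzmc was 84.4% to 86.5% identical to the 4 genes, and Gzmb 57.1% to 65.5% identical to the other 5 windows, over 162 to 212 aligned bases. The Gzmb window, at 56262335 to 56262584, does not adjoin the GENCODE start of the gene at 56262260, and the part of this shift was not tested. AACCACA stood once in each of the 6 windows, beginning between positions -196 and -175 in Gzme, Gzmd, Gzmg, Gzmf and Gzmc, counted back from the annotated start, and 4.40% of 32851 mouse windows of this length held it on either strand. AGGAAGT stood once in each window but that of Gzmb, against 7.69% of all windows. TGACGTCA, added after the sequences had been read, was present upstream of Gzmg, Gzmf and Gzmc and not of Gzme, Gzmd or Gzmb, against 1.55% of all windows. The AP-1 motif TGANTCA occurred once upstream of Gzmb and not in the other 5 windows, and GGAAAA, TTCNNNGAA and TATAAA, searched on both strands, occurred in none of the 6. The 3 marked motifs do not overlap in these windows, and a match describes the letters only.

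The transcripts are nearly as alike, which bears on every D to G value below. The Gzmd and Gzme transcripts were 94.8% identical over 916 aligned bases, and Gzmf was 86.4% identical to Gzme. In the last 500 bases, which 3′ libraries read, 16.8% of the 55-base windows (a length chosen here) of Gzmd and 14.8% of those of Gzme also occurred in another granzyme transcript of the cluster, compared with 11.7% for Gzmg, 6.05% for Gzmf and 0% for Gzmc and Gzmb. Counts of single D to G genes are therefore uncertain in part, while Gzmc and Gzmb are less affected. Their sum is uncertain too if reads that match several genes were not counted, which is not stated.

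Both libraries were deep, with 118059108 UMIs over 8569 barcodes in the OX40 agonist library and 114026695 over 7187 in the control library. They shared 18 barcode sequences, none of them of a granzyme-high cell. Granzyme-high cells held a median of 19358 UMIs in the OX40 agonist and 19857 in the control library, against 9628 and 11509 in other CD8 T cells, so the fixed minimum of 10 UMIs and the depth move together. With 1 library per group there is no replicate check and no test. Intervals are 95% counting intervals. They leave out differences between mice, and where a few cells hold most UMIs of a gene they understate its error.

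The rule itself used Cd3, Cd8, macrophage and melanoma genes, so their levels describe the cells and are no check of the label. Cd3d, Cd3e, Cd3g, Cd8a, Cd8b1 and Trac together were at 6413 CPM (a gene's UMIs over all UMIs of the cells of a class, on the usual CPM scale) in granzyme-high cells of the OX40 agonist library and at 6002 CPM in those of the control library, against 6116 CPM in other CD8 T cells of each library. Markers that the rule did not use follow. A list of 4 regulatory T cell markers (Foxp3, Il2ra, Ctla4 and Ikzf2) summed to 542 CPM in granzyme-high cells of each library. In other CD8 T cells it was at 618 and 564 CPM. At least 5 UMIs of this list were in 83.7% and 83.1% of granzyme-high cells, against 58.1% and 63.7% of other CD8 T cells. No granzyme-high cell of the OX40 agonist library held a Cd4 or Cd40lg UMI (0 of 92 cells, which allows a share of up to 3.26%, or 3 cells of the total), and 3.98% of control ones held a Cd4 UMI, with Cd40lg at 0. Of 7 NK markers, 4 (Ncr1, Klrb1c, Klra8 and Klra4) were at 0 in OX40 agonist granzyme-high cells and 1 (Ncr1) in control ones, and 54.3% and 53.7% of the cells had a UMI of the list, against 32.6% and 38.5% of other CD8 T cells. The summed NK markers were at 111 and 80.3 CPM, against 92.0 and 94.5 CPM in other CD8 T cells. Among 6 mast cell markers, Cpa3, Mcpt4, Tpsb2 and Fcer1a were at 0. Cma1 had UMIs in OX40 agonist granzyme-high cells and in control other CD8 T cells, and was at 0 in the remaining classes. Kit is a growth factor receptor also used by other cells. It had a UMI in 32.6% and 25.9% of granzyme-high cells, against 8.10% and 9.13% of other CD8 T cells. The whole list had a UMI in 33.7% of OX40 agonist granzyme-high cells. The 10 macrophage or monocyte markers, among them 4 that the rule capped (C1qa, C1qb, C1qc and Lyz2), summed to 87.2 and 78.5 CPM in granzyme-high cells, against 106 and 104 CPM in other CD8 T cells. The 5 melanoma markers, of which the rule capped Pmel, Mlana and Dct, summed to 64.8 and 55.9 CPM, against 78.4 and 75.3 CPM. The 7 dendritic cell markers summed to 165 and 136 CPM, against 318 and 257 CPM. A UMI of the dendritic list was in 51.1% and 40.8% of granzyme-high cells, against 37.6% and 33.8% of other CD8 T cells. Neutrophil markers were at 13.9 and 0.923 CPM, against 21.3 and 8.97 CPM. In granzyme-high cells the gamma-delta T and the B or plasma cell lists were at most at 2.31 CPM.

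Granzyme-high cells formed a smaller share of CD8 T cells in the OX40 agonist library. They were 7.20% (exact Clopper-Pearson interval 5.85 to 8.76) of 1277 CD8 T cells in the OX40 agonist library and 12.6% (11.03 to 14.4) of 1592 in the control library, a ratio of 0.571 (0.441 to 0.734). Of all passing barcodes they were 1.23% and 3.16%, a ratio of 0.388 (0.2996 to 0.499), since CD8 T cells themselves were 17.0% and 25.1% of passing barcodes. After each cell was thinned to 3000 UMIs, leaving out 31 and 30 shallower cells, 7.70% and 13.3% had at least 2 granzyme D to G UMIs, a ratio of 0.579 (0.449 to 0.740). At least 1 such UMI was seen in 19.8% of CD8 T cells of the OX40 agonist library and in 29.7% of control ones, unthinned. Single UMIs can also come from free RNA in the droplets, whose part was not tested. In myeloid barcodes without a Cd3 UMI, which should lack these genes, 2.59% and 6.44% had at least 1, at median depths of 8073 and 9159 UMIs against 10135 and 12436.5 in CD8 T cells, and 0 of 2510 and 0 of 1832 had 10 or more. Of CD4 T cell barcodes, 0 of 230 and 0 of 128 had 10 or more, which allows shares of up to 1.30% and 2.34%.

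**Figure D1:**
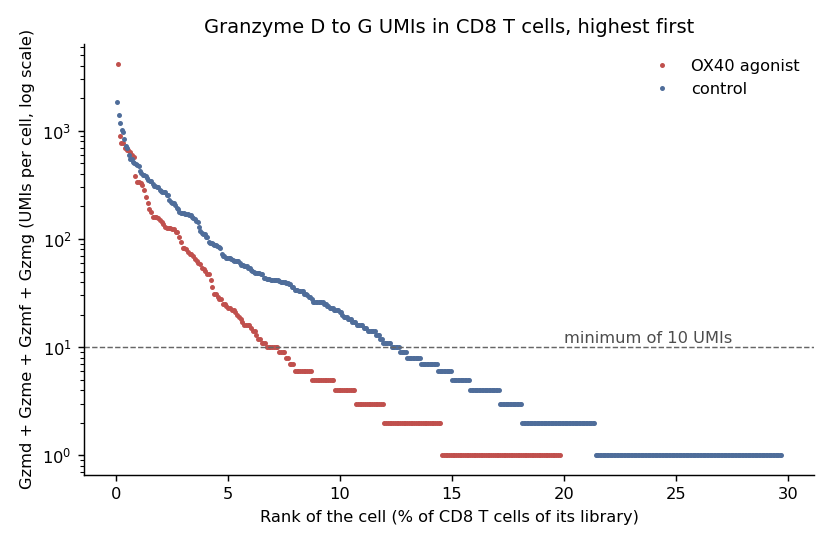
Summed Gzmd, Gzme, Gzmf and Gzmg UMIs (log scale) of each CD8 T cell with at least 1, ordered from high to low, against its rank as a percentage of the CD8 T cells of its library. The curve of the OX40 agonist library crosses the minimum of 10 UMIs at 7.20% of its cells and that of the control library at 12.6%; 1 OX40 agonist cell stands apart at 4188 UMIs.

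The content per cell ranged widely. Granzyme-high cells held a median of 61 granzyme D to G UMIs in the OX40 agonist library, with quartiles of 19.75 and 156, and a median of 48 in the control library, with quartiles of 24 and 169. The highest cell of the OX40 agonist library held 4188, made up of 1197 Gzmd, 808 Gzme, 1633 Gzmf and 550 Gzmg UMIs, or 9.60% of all its UMIs. The highest control cell held 1837, with 528 Gzmd, 223 Gzme, 455 Gzmf and 631 Gzmg UMIs, or 9.95% of its UMIs. Neither cell had an Mki67 UMI, and both held Cd8a (58 and 12 UMIs). The 9 and 20 cells with most granzyme D to G UMIs held 57.3% and 49.6% of the UMIs. Just inside the limit, at 10 to 12 UMIs, lay 12 and 14 cells, and just outside it, at 7 to 9, lay 9 and 27. The granzyme-high cells held 97.6% of all granzyme D to G UMIs of CD8 T cells in each library.

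As a sum over cells, the OX40 agonist library had the higher level per granzyme-high cell, but this rested in part on 1 cell. The summed level was 9248 CPM in OX40 agonist and 6733 CPM in control granzyme-high cells, and 7174 and 6336 CPM without the highest cell of each. The median over cells was 2994 CPM in the OX40 agonist and 2807 CPM in the control library. By gene, the levels in granzyme-high cells were 2852 CPM in the OX40 agonist and 1875 in the control library for Gzmd, 2565 and 1735 for Gzme, 3088 and 2425 for Gzmf, and 742 and 697 for Gzmg. The highest cell held 39.7% of the Gzmg UMIs in the OX40 agonist and 20.9% in the control library, and without it Gzmg was at 459 and 554 CPM, the other order. Without these cells Gzmd was at 2265 and 1761 CPM, Gzme at 2184 and 1691 CPM, and Gzmf at 2267 and 2330 CPM, also the other order. Other CD8 T cells were at 2.10 and 4.61 CPM for Gzmd, 6.51 and 9.62 for Gzme, 21.5 and 20.4 for Gzmf, and 0.795 and 0.962 for Gzmg. Gzmf was the most abundant of the 4 genes in 56.5% and 53.2% of granzyme-high cells, and Gzmg in 1.09% and 1.49%.

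The 4 granzymes were not carried as 1 block, and Gzmf was often found apart from the other 3. With a gene counted as present at 2 or more UMIs, all 4 were present in 15.2% of OX40 agonist and 18.4% of control granzyme-high cells. Gzmf without the other 3 was found in 23 of 92 cells (25.0%, 16.6 to 35.1) of the OX40 agonist library and in 45 of 201 (22.4%, 16.8 to 28.8) of the control library. Gzmd, Gzme or Gzmg without Gzmf was found in 15 cells (16.3%, 9.42 to 25.5) and 56 cells (27.9%, 21.8 to 34.6). The remaining 54 and 100 cells held Gzmf with at least 1 of the others. In the OX40 agonist library no cell held Gzmd alone or Gzme alone. Because the sum was required to reach 10 UMIs, patterns within these cells are conditioned on it.

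**Figure D2:**
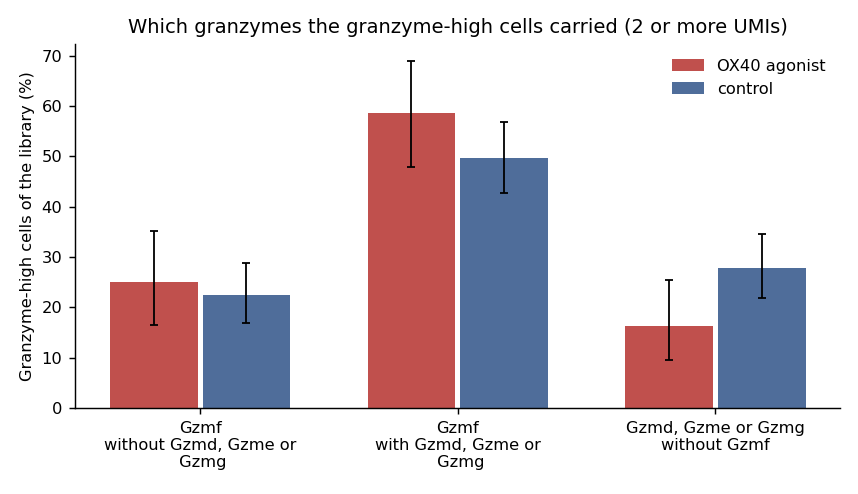
Percentage of granzyme-high cells of each library that held Gzmf only, Gzmf with at least 1 of Gzmd, Gzme and Gzmg, or any of these 3 without Gzmf, at 2 or more UMIs per gene; error bars are exact 95% intervals over cells. Cells with Gzmf and another of the genes were the largest class in each library, at 58.7% and 49.8%.

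Over all CD8 T cells, with no minimum on the sum, the shares depend on how often each gene was seen, and Gzmf was seen in more cells (144 in the OX40 agonist and 227 in the control library) than Gzme (84 and 187), Gzmd (57 and 153) or Gzmg (22 and 51). Of cells with Gzmd, 94.7% (54 of 57) in the OX40 agonist library and 87.6% (134 of 153) in the control library also held Gzme. Of cells with Gzmg, 95.5% (21 of 22) and 96.1% (49 of 51) held Gzme. Of cells with Gzmf, 38.2% (55 of 144) and 45.4% (103 of 227) held Gzme, while 65.5% and 55.1% of cells with Gzme held Gzmf. Gzmf was also held by 70.2% and 58.8% of cells with Gzmd and by 68.2% and 76.5% of those with Gzmg. Gzmc was present in 96.5% and 96.7% of cells with Gzmd and in 82.6% and 88.1% of cells with Gzmf, while 17.0% and 25.9% of cells with Gzmc held Gzmd.

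Correlations of log levels across granzyme-high cells are a description only, since choosing cells by the sum of the 4 genes moves these values and the points of a library share its depth and free RNA. Gzmd and Gzme, neighbours with the most alike sequences, had a Pearson's r of 0.89 over 92 cells of the OX40 agonist library and 0.83 over 201 of the control library. Gzmd and Gzmg had an r of 0.70 and 0.65. Gzmf had an r of 0.00 and 0.03 with Gzmd, of -0.09 in each library with Gzme, and of 0.15 and 0.17 with Gzmc. Gzmc, which lies beyond Gzmf as seen from Gzmd, had an r of 0.52 and 0.45 with Gzmd. Gzmf is part of the sum that chose the cells and Gzmc is not, so their r with Gzmd are not alike. How far shared reads of Gzmd and Gzme enter their correlation was not tested.

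**Figure D3:**
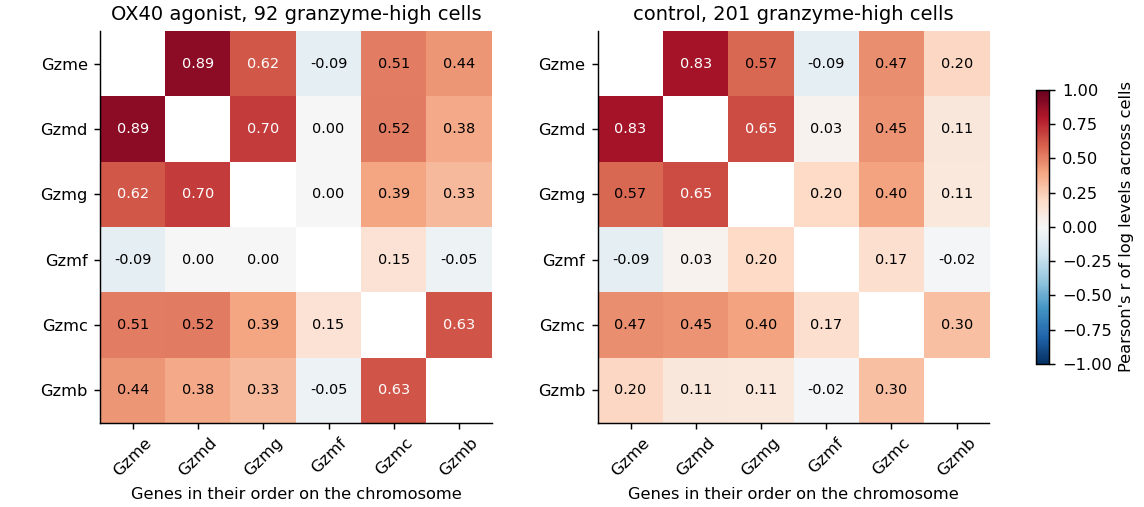
Pearson's r of log levels across granzyme-high cells for pairs of granzyme genes, in chromosomal order, in the OX40 agonist (left, 92 cells) and control (right, 201 cells) libraries. Gzme, Gzmd and Gzmg are between 0.57 and 0.89 with each other, while the row of Gzmf stays between -0.09 and 0.20.

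Genes that the pattern did not use were compared between cells with Gzmf alone and the other classes. Gzmc was at 1614 CPM in cells with Gzmf alone, against 10419 in cells with Gzmf and others and 5395 in cells without Gzmf, in the OX40 agonist library. In the control library these levels were 1544, 7489 and 4534 CPM. Upp1, a uridine phosphorylase, was at 18.9 CPM (7.61 to 39.0) in cells with Gzmf alone, against 76.2 (61.4 to 93.4) and 75.6 (47.4 to 114) CPM in the other classes of the OX40 agonist library, and at 23.3 (14.2 to 35.99), against 73.5 (62.6 to 85.8) and 76.4 (62.0 to 93.1) CPM, in the control library. Prf1 was at 1114 CPM in cells with Gzmf alone, against 2027 and 1955 CPM, in the OX40 agonist library and at 1194, against 1624 and 2185 CPM, in the control library. Areg did not keep its order between the libraries, at 73.0 CPM in cells with Gzmf alone, against 191 and 175 CPM, in the OX40 agonist library and at 395, against 273 and 160 CPM, in the control library. Serpinb9b was at 127, against 675 and 278 CPM, in the OX40 agonist library and at 443, against 412 and 573 CPM, in the control library. Cells with Gzmf alone held fewer granzyme D to G UMIs, with medians of 19 and 22, against 124.5 and 149.5 in cells with Gzmf and others, and the part of that difference in these levels was not tested. Among OX40 agonist cells with Gzmf alone, 1 cell held 74.1% of the Areg UMIs. For Serpinb9b and Upp1 the cell with most UMIs held 55.3% and 57.1%. These OX40 agonist levels therefore rest largely on 1 cell per gene. Among control cells with Gzmf alone, the share was 30.1% for Areg and lower for Serpinb9b and Upp1.

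Set against other CD8 T cells of their own library, granzyme-high cells had higher levels of other granule genes and lower levels of Xcl1 and Gzma. Genes at 10 CPM or more in either class were compared, and at least 2-fold after 10 CPM was added to both sides counted as higher or lower. In the OX40 agonist library 28 of 7097 genes (0.395%) were higher and 39 (0.55%) lower. In the control library 24 of 7107 (0.338%) were higher and 20 (0.281%) lower. Of 6906 genes measured in both libraries, 19 were higher in both and 17 lower in both, and 0 went in opposite directions.

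**Figure D4:**
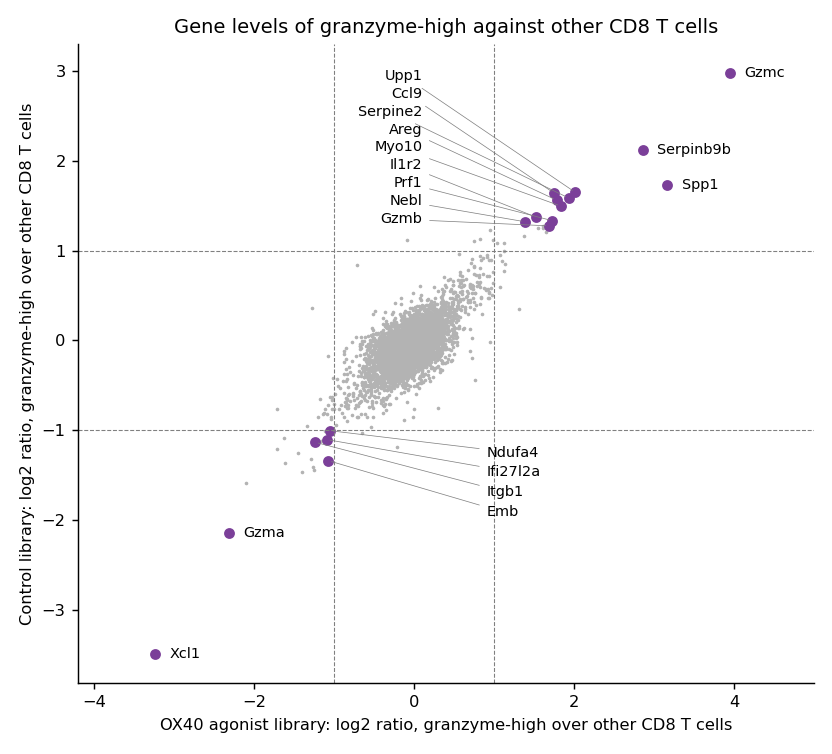
Log2 ratio of granzyme-high over other CD8 T cells for each measured gene (grey) in the OX40 agonist library (horizontal) and the control library (vertical), 10 CPM added to both sides, without the genes of the rule. The 18 labelled genes passed the naming rule; dashed lines mark a 2-fold difference. Gzmc is at 3.94 and 2.98 and Xcl1 at -3.24 and -3.49.

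The granule genes Gzmc, Gzmb and Prf1 and the serpin gene Serpinb9b had higher levels. Gzmc was at 7894 CPM in granzyme-high and 504.3 CPM in other CD8 T cells of the OX40 agonist library, 15.7-fold (15.2 to 16.1), and at 5436 and 681 CPM in the control library, 7.99-fold (7.82 to 8.16). Gzmb was at 5174 and 1601 CPM in the OX40 agonist library and at 4299 and 1769 CPM in the control library, 3.23-fold and 2.43-fold. Prf1 was 3.35-fold (3.22 to 3.49) and 2.54-fold (2.47 to 2.62) higher. Serpinb9b, of the serpin family that inhibits granule proteases, was at 505 against 61.1 CPM and at 466 against 99.2 CPM, while its relatives Serpinb6b (log2 ratio 0.94 and 0.90) and Serpinb9 (0.47 and 0.39), the granzyme B inhibitor, differed by less than 2-fold. Of 17 genes of the cytotoxic granule list, 2 were higher and 0 lower in each library, with a median log2 ratio of 0.26 and 0.17, against -0.06 over all genes in each library.

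Of the granzymes encoded elsewhere, Gzma was lower by the 2-fold rule and Gzmk was not. Gzma was at 8.56 CPM in granzyme-high and 82.7 CPM in other CD8 T cells of the OX40 agonist library, and at 5.08 and 56.7 CPM in the control library. Against cycling other CD8 T cells the log2 ratio of Gzma was -0.48 in the OX40 agonist and -1.24 in the control library. Gzmk, a granzyme of memory-like T cells, had a log2 ratio of -0.42 and -0.44. Gzmn, between Gzmg and Gzmf, was at 3.21 CPM in OX40 agonist and 1.62 CPM in control granzyme-high cells, against 0 and 0.0507 CPM in other CD8 T cells. Mcpt8, a protease gene of basophils 35.352 kb from Gzme on the far side of the cluster, had a UMI in 5.43% and 9.45% of granzyme-high cells, against 0% and 0.216% of other CD8 T cells. Both genes are near the limit of detection, and both were singled out after their values were seen.

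Secreted factors differed in both directions. Xcl1, a chemokine that attracts cross-presenting dendritic cells, was at 33.2 CPM in granzyme-high and 398 CPM in other CD8 T cells of the OX40 agonist library, 0.0833-fold (0.0638 to 0.107), and at 32.3 and 466 CPM in the control library, 0.0694-fold (0.0583 to 0.082). In granzyme-high cells 46.8% and 38.6% of its few UMIs came from 1 cell. Spp1 (osteopontin) was at 577 against 55.7 CPM in the OX40 agonist library and at 756 against 220 CPM in the control library, with 28.3% and 25.1% of the granzyme-high UMIs from 1 cell. Ccl9, a chemokine of myeloid cells, was 3.96-fold and 3.499-fold higher (2.69-fold and 3.16-fold without the cell that held most Ccl9 UMIs). The epidermal growth factor receptor ligand Areg was 4.01-fold and 3.19-fold higher (3.01-fold and 2.92-fold without the cell that held most Areg UMIs). In the list of 15 and 16 measured cytokines and chemokines these 3 genes and Penk, which encodes enkephalins and was named after its values were seen (log2 ratio 1.11 and 1.08), were higher and Xcl1 was lower, while the medians were -0.09 and 0.03. Ifng, encoding interferon-gamma, had a log2 ratio of 0.19 and 0.28. Spp1 and Ccl9 are abundant in macrophages, whose marker list in part was capped by the rule, and the part of macrophage RNA in both genes was not tested. With the macrophage limit left out (chosen after the data had been seen) the log2 ratio of Ccl9 was 0.30 and 0.73. In OX40 agonist cells with 0, 1 to 2, 3 to 9 and 10 to 29 granzyme D to G UMIs, Ccl9 was at 25.3, 135, 29.1 and 66.0 CPM.

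The other genes that passed the naming rule as higher were Upp1 (7.59-fold in the OX40 agonist and 4.69-fold in the control library), the serpin Serpine2 (4.21-fold and 3.30-fold), the unconventional myosin Myo10 (4.56-fold and 3.26-fold), the decoy interleukin 1 receptor Il1r2 (2.99-fold and 2.69-fold) and Nebl, an actin-binding protein (3.70-fold and 3.22-fold). Il1r2 had a UMI in 83.7% and 87.6% of granzyme-high cells, against 32.6% and 40.9% of other CD8 T cells, and after thinning in 52.2% and 56.2%, against 17.5% and 21.01%. Upp1, with the second highest correlation with the summed granzymes over granzyme-high cells (r of 0.37 and 0.29) after Gzmc (0.54 and 0.46) among 5686 genes, had a UMI in 47.8% and 53.7%, against 5.65% and 10.4%. The next was Cysltr2, a leukotriene receptor (0.27 and 0.26). These r share the depth of the cells and are descriptions.

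Itgb1, Emb, Ifi27l2a and Ndufa4 also passed the naming rule as lower. Their levels by granzyme D to G UMIs per cell are given below for the OX40 agonist library. Itgb1, an integrin chain of effector and memory T cells, was at 63.2 CPM in granzyme-high and 163 CPM in other CD8 T cells of the OX40 agonist library and at 63.3 and 151 CPM in the control library. The basigin relative Emb was 0.442-fold and 0.354-fold, the interferon-induced gene Ifi27l2a 0.455-fold and 0.453-fold, and Ndufa4, a respiratory chain protein, 0.468-fold and 0.486-fold. Comparisons with cycling other CD8 T cells and with noncycling ones holding a Havcr2 UMI are not part of the following ranges. Under some of the remaining alternative settings the log2 ratio of Emb reached -0.54 in the OX40 agonist and -0.77 in the control library, below 2-fold. That of Ifi27l2a reached -0.78 and -0.91, and that of Ndufa4 -0.72 and -0.82. Itgb1 reached -0.83 in the control library. Against the cycling and the noncycling Havcr2 cells, 5 and 7 values of named genes fell below 2-fold, and 1 and 4 passed it. Tcf7, the transcription factor of stem-like T cells, had 0 UMIs in 92 OX40 agonist cells, below the 1.61 CPM that 3 UMIs would give, and was at 0.923 CPM in control granzyme-high cells, against 9.98 and 12.2 CPM in other CD8 T cells. In the naive and memory list the median log2 ratio was -0.66 over 8 and -0.53 over 9 measured genes, with 1 (Bcl2) and 3 (Bcl2, Tcf7 and Klf2) of them lower. Against cycling other CD8 T cells 0 of 8 and 0 of 7 genes of this list were lower, with medians of -0.22 and 0.07. Bcl2, a survival factor, was at 10.7 against 44.7 CPM and at 11.3 against 48.7 CPM, and Klf2, a regulator of T cell recirculation, had a log2 ratio of -0.22 in the OX40 agonist and -1.19 in the control library. Of chemokine receptor and residency genes, 4 of 15 were lower in the OX40 agonist library and 2 of 16 in the control library, Itgb1 and the chemokine receptor Cxcr3 in both (Cxcr3 log2 ratio -1.62 and -1.36), and Cxcr4 and Cd69, named after their values were seen, in the OX40 agonist library (-1.15 and -1.01; in the control library -0.82 and -0.76).

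The inhibitory receptor list had a median log2 ratio of -0.07 over 13 genes in the OX40 agonist library and -0.09 over 12 in the control library, with 1 gene lower in the OX40 agonist library, Cd160 (-1.03, named after its value was seen), and 0 in the control library. Pdcd1 (PD-1) had a log2 ratio of -0.15 and -0.18, Lag3 of 0.08 and -0.03, Havcr2 (TIM-3) of 0.55 and 0.67 and Entpd1 (CD39) of 0.73 and 0.47. Tox, a transcription factor of exhausted T cells, was at 89.4 CPM in granzyme-high and 176 CPM in other CD8 T cells of the OX40 agonist library and at 89.3 and 164 CPM in the control library. Of 23 effector and exhaustion transcription factors, 0 passed 2-fold in either library, and Irf8 had a log2 ratio of 0.90 and 0.57. Tnfrsf4, the target of the agonist, was at 548 against 473 CPM in the OX40 agonist library and at 587 against 429 CPM in the control library. The costimulatory receptor Tnfrsf9 (4-1BB) had a log2 ratio of 0.67 and 0.52, and Il2ra of 0.72 and 0.91.

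Dividing cells, with at least 2 Mki67 and Top2a UMIs, made up 55.4% (44.7 to 65.8) of granzyme-high cells and 37.0% (34.3 to 39.9) of other CD8 T cells in the OX40 agonist library, and 56.2% (49.1 to 63.2) and 43.4% (40.7 to 46.0) in the control library. After thinning the shares were 28.3% (19.4 to 38.6) and 19.6% (17.3 to 21.99) in the OX40 agonist library and 25.9% (19.97 to 32.5) and 23.5% (21.3 to 25.9) in the control library, and at equal depth the intervals of the classes overlap in both libraries. The mitosis list had a median log2 ratio of 0.03 and -0.15, and all 16 S phase genes were below 0 in each library, with medians of -0.28 and -0.34. Of the 15 glycolysis genes 13 and 15 were above 0, with medians of 0.17 and 0.21, and of 12 hypoxia response genes 9 and 11, with medians of 0.25 and 0.28. None of these genes reached 2-fold, and over all genes 2825 of 7097 and 2538 of 7107 were above 0.

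Granzyme-high cells were also set against subsets of other CD8 T cells. Since Mki67 and Top2a defined the subsets, differences in cell cycle genes follow in part from that choice. Against the 439 and 603 cycling other CD8 T cells, 47 genes (0.661%) were higher and 25 (0.352%) lower in the OX40 agonist library, and 29 (0.408%) and 14 (0.197%) in the control library. Against the 390 and 435 noncycling cells with a Havcr2 UMI, 105 (1.47%) were higher and 42 (0.589%) lower in the OX40 agonist library, and 111 (1.55%) and 39 (0.545%) in the control library, of them 14 and 15 mitosis genes among those higher. Gzmc, at 7894 and 5436 CPM in granzyme-high cells, was at 484 and 741 CPM in the cycling and at 776 and 774 CPM in the Havcr2 cells of the OX40 agonist and control libraries. Xcl1 had a log2 ratio of -2.91 and -3.11 against the cycling cells and of -3.32 and -3.29 against the Havcr2 cells. The cytotoxic granule list had a median log2 ratio of 0.46 and 0.30 against the cycling and -0.07 and -0.03 against the Havcr2 cells, and the inhibitory receptor list of 0.26 and 0.14, and of -0.29 and -0.49. Prf1 was at 1.05 and 0.84 against the Havcr2 cells, below 2-fold in the control library, and Havcr2 itself at 0.63 and 0.81 against the cycling cells.

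Gzmc and Prf1 were at higher levels with each step in granzyme D to G UMIs, also below the minimum of 10, though not every step was beyond its counting interval. Gzmc was at 315, 853 and 1974 CPM in OX40 agonist cells with 0, 1 to 2 and 3 to 9 UMIs and at 2469, 6069 and 12704 CPM with 10 to 29, 30 to 99 and 100 or more. In control cells it was at 408, 777, 2810, 2889, 3952 and 8672 CPM, of which the third and the fourth have overlapping intervals (2732 to 2890 and 2792 to 2989). Gzmb was at 3689 CPM in OX40 agonist cells with 3 to 9 UMIs and at 3398 CPM in those with 10 to 29, and Serpinb9b at 239.5 and 139 CPM. The steps above the minimum hold between 21 and 71 cells each. Prf1 was at 453, 797 and 1165 CPM in OX40 agonist cells below the minimum and at 2289 CPM in the last step, and at 573, 788 and 1279 CPM in control cells below it and 1948 CPM in the last. Xcl1 was at 292 and 171 CPM in OX40 agonist and control cells with 3 to 9 UMIs, and at 31.3 and 51.0 CPM in those with 10 to 29. Other genes named as lower were already lower below the minimum in the OX40 agonist library. With 0, 1 to 2, 3 to 9 and 10 to 29 UMIs, Emb was at 187, 77.6, 102 and 114 CPM. Itgb1 was at 179, 108, 88.3 and 89.1 CPM, and Ifi27l2a at 493, 217, 261 and 247 CPM. Gzma was at 101, 12.4, 2.91 and 23.1 CPM. Ndufa4 was at 490, 427 and 302 CPM with 0, 1 to 2 and 3 to 9 UMIs. The median depth of the cells was 8737.5 and 10708 UMIs in the first step, and between 14864 and 23139 in all others, so depth moves with the first step and its part was not tested.

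**Figure D5:**
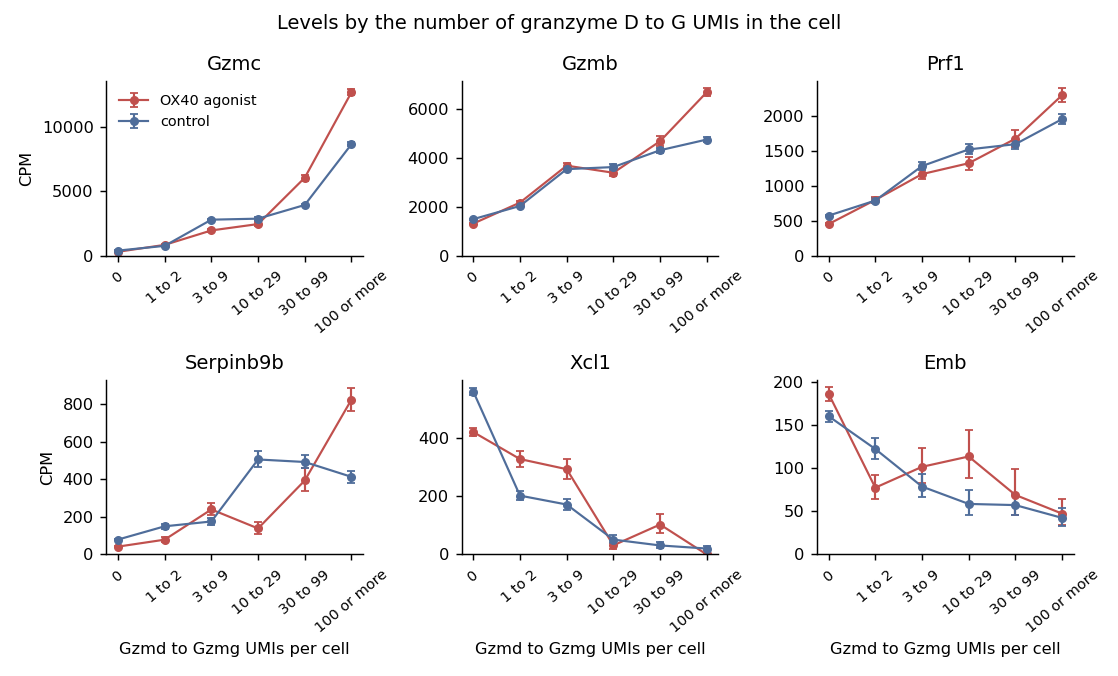
Level (CPM, from 0) of 6 genes in CD8 T cells grouped by their Gzmd to Gzmg UMIs, in the OX40 agonist and control libraries; bars are Poisson 95% intervals. Gzmc, Gzmb and Prf1 are higher from each step to the next but for Gzmb at 10 to 29 UMIs in the OX40 agonist library, and Xcl1 is at 0 to 102.5 CPM in the steps from 10 UMIs on.

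Between the libraries, granzyme-high cells differed in few genes. Of 7019 genes, 8 (0.114%) were higher and 7 (0.0997%) lower by 2-fold in OX40 agonist than in control granzyme-high cells, and in other CD8 T cells 0 (0%) and 2 (0.0285%) of 7015 were. These counts rest on unlike amounts of data. Granzyme-high cells held 1868280 and 4331631 UMIs, and other CD8 T cells 13835158 and 19741623. The part of this in the counts was not tested. Plac8, a small cysteine-rich protein, was at 1141 CPM in OX40 agonist and 532 CPM in control granzyme-high cells, 2.14-fold (2.02 to 2.28), with at most 3.95% of UMIs from 1 cell, and its log2 ratio in other CD8 T cells was 0.53. Il1b, H2-Aa, H2-Eb1 and Ifitm3 also passed the rule, but 58.6%, 62.7%, 69.3% and 36.7% of their OX40 agonist UMIs came from 1 cell. Without the cell that held most UMIs of the gene, the log2 ratios of Il1b, H2-Aa and H2-Eb1 were 0.78, 0.47 and 0.30, below 2-fold, and that of Ifitm3 was 1.48. With the macrophage limit left out the log2 ratios of H2-Aa, H2-Eb1 and Ifitm3 were -0.61, -0.67 and -0.64. The chemokine Ccl1 was at 115 CPM in OX40 agonist and 295 CPM in control cells, 0.390-fold (0.336 to 0.451), and the vesicular glutamate transporter Slc17a6 at 28.9 and 71.6 CPM, 0.404-fold (0.297 to 0.541). With at least 20 granzyme UMIs the log2 ratio of Ccl1 was -0.38, with the minimum set relative to depth -0.15 and with at least 5 granzyme UMIs -0.97, against -1.29 here, and 27.2% of its control UMIs came from 1 cell. In other CD8 T cells the log2 ratios of Ccl1 and Slc17a6 were -0.74 and -0.67, and that of Spp1 was -1.81, against -0.38 in granzyme-high cells.

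Gene lists differed little between the libraries within granzyme-high cells. The cytotoxic granule list had a median log2 ratio of 0.04 over 17 genes, against -0.02 over all genes, with Plac8, which was on that list, the only member past 2-fold. The cytokine and chemokine list had a median of -0.20 over 16 genes, and -0.22 over 15 in other CD8 T cells. The genes of dissociation stress, which respond to tissue digestion, had a median of 0.22, with 14 of 17 genes above 0, and of 0.07 with the same count in other CD8 T cells. Its part in the differences was not tested. Gzmc had a log2 ratio of 0.54 in granzyme-high and -0.43 in other CD8 T cells, and Gzmb of 0.27 and -0.14.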

How the data were processed

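Per the labels' protocols, live CD45-positive leukocytes were sorted and libraries made with 10x Chromium 3′ v3 chemistry. The deposited matrices hold UMI counts per gene and barcode, whole numbers that the authors made with Cell Ranger on build mm10, per the submitters' processing notes, version 3.1.0 per the file headers. Handling of reads that match several genes is not stated there. No value was normalized before deposit.

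The cells, gene lists, naming rule and alternatives were chosen with earlier results of these data known. UMIs were summed over the cells of a class and scaled to CPM. Log2 ratios were taken after 10 CPM was added, over genes at 10 CPM or more in either class and without the genes of the rule. Shares carry exact Clopper-Pearson intervals, levels exact Poisson intervals and folds exact conditional intervals, all at 95%. Named genes had, in both libraries, a level of 50 CPM or more with UMIs in 5% of cells (higher class), intervals that did not overlap and a 2-fold difference of the same sign. The 12 highest and 12 lowest were taken (15 and 6 qualified), and 6 and 6 between libraries (5 and 2 qualified). All granzymes, Prf1, Tnfrsf4, cell type markers, up to 4 members of each of 20 lists and the 3 genes with the highest correlation with the summed granzymes were added. Mitochondrial, ribosomal, Gm, Rik and receptor segment genes were left out of naming. Doublets were not removed. As an alternative, a score against simulated doublets, scaled to the number of barcodes, removed 2 of 92 and 3 of 201 granzyme-high cells. Thinning drew 3000 UMIs per cell. Scripts ran in Python 3.11.15 with scipy 1.17.1 and were tested on simulated counts.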

Additional observations from a re-analysis of the deposited data

Results flagged for a closer look

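Barcodes that met the T cell limits but held 5 or more UMIs of C1qa, C1qb, C1qc and Lyz2 also carried the granzymes. Of these, 9 of 294 (3.06%, 1.41 to 5.73) in the OX40 agonist library and 51 of 363 (14.05%, 10.6 to 18.1) in the control library had 10 or more granzyme D to G UMIs. They are listed because they carry this signal and are outside the comparisons of the report. Of myeloid barcodes without a Cd3 UMI, 0 of 2510 and 0 of 1832 had as many. Their median depths were 21301 and 26033 UMIs, and whether they are doublets of a T cell and a macrophage was not tested. Barcodes that met the T cell limits but held 10 or more melanoma UMIs had shares of 11.1% (4 of 36) and 13.0% (7 of 54). NK barcodes without a Cd3 UMI had 1 of 207 and 2 of 199.

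Plac8 and Il1b were above other CD8 T cells in the OX40 agonist library and below them in the control library, but for Il1b this rested on 1 cell. Plac8 in granzyme-high over other CD8 T cells was 1.40-fold (1.34 to 1.47) in the OX40 agonist library and 0.948-fold (0.906 to 0.991) in the control library. Il1b was 1.85-fold (1.54 to 2.21) and 0.663-fold (0.534 to 0.815), with 58.6% and 34.6% of its granzyme-high UMIs from 1 cell. Without the cell that held most Il1b it was 0.777-fold and 0.435-fold, with the macrophage limit left out its log2 ratio was -0.54 and -1.11, and with doublets removed 1.91 and -0.79. The log2 ratio of Plac8 in the control library was 0.08 against cycling other CD8 T cells. These differences between the libraries were not tested.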

How the results depend on the processing

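The ratio of granzyme-high shares between libraries was 0.499 to 0.621 under all alternatives run for it. The shares were 9.71% in the OX40 agonist and 15.8% in the control library at a minimum of 5 granzyme UMIs, 5.40% and 10.1% at 20, and 10.99% in the control library with a minimum relative to depth. Counts of genes past 2-fold moved more. Against other CD8 T cells, with 1 CPM added, 86 were higher and 137 lower in the OX40 agonist library and 66 and 64 in the control library, and 27 and 40 between libraries. With a minimum of 50 CPM, 19 and 8 were lower in the OX40 agonist and control libraries, and 5 higher and 4 lower between them. With means over cells, 72 and 45 were lower, and 4 higher between libraries, as with 20 granzyme UMIs (4) or the relative minimum (4). Thinned to 3000 UMIs, 98 higher and 255 lower, 41 and 86, and between libraries 112 and 221 passed, but 26 of the 28 and all 24 genes called higher against other CD8 T cells were kept, and only 3 of 8 and 4 of 7 between libraries. Against deep other CD8 T cells 23 and 8 were lower. Against cycling ones 47 were higher and 25 lower in the OX40 agonist library, and against noncycling Havcr2 cells 105 were higher there, and 111 higher and 39 lower in the control library. Without the macrophage limit, 145 and 10 were lower, and between libraries 2 higher and 62 lower. Between libraries H2-Eb1 turned to -0.16 with 20 granzyme UMIs, -0.23 with the relative minimum and -0.67 without the macrophage limit, where H2-Aa was at -0.61 and Ifitm3 at -0.64. The cause was not tested. Among values of named genes under the alternatives, 1498 kept their side of the threshold, 51 fell below it and 36 passed it. The alternative that left out the top cell of each gene was chosen after seeing the data. No paired analysis was possible because each group has 1 library. Leaving out a replicate was not possible for the same reason.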

Other observations

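Few cells showed a T cell receptor segment in these 3′ data, so clones cannot be followed. In the control library, of cells with at least 2 UMIs of a Trav segment, Trav16 was the one with most UMIs in 30 of 35 granzyme-high cells (85.7%, 69.7 to 95.2) and in 94 of 111 other CD8 T cells (84.7%, 76.6 to 90.8). In the OX40 agonist library 7 granzyme-high cells and 29 other CD8 T cells had a Trav call, with 5 and 15 segments in use. Trav16 was at 0.535 CPM in OX40 agonist and 24.5 CPM in control granzyme-high cells.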
